A study of Mus musculus with 4 samples.

Results

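The genes described here are 10 mouse genes that hold Wnt signaling in check, chosen by gene symbol from the 56748 genes of the deposited count table. Of these, 6 encode secreted antagonists (Wif1, Sfrp1, Sfrp2, Frzb, Dkk2 and Dkk3) and 4 encode feedback components of the pathway (Nkd1, Axin2, Rnf43 and Znrf3). Each symbol matched 1 row of the table, and all 10 had enough reads to be tested, 9 of them through both groups and Wif1 only through the treated libraries. Bulk RNA sequencing was performed on lungs carrying metastases of 4T1-FLuc, a luciferase-expressing derivative of the mouse triple-negative breast cancer (TNBC) line 4T1, which is a single cell line. Female BALB/cJ mice aged 7 weeks received the cells through the tail vein, and after metastasis was seen they were given saline (2 libraries) or cmLumiOpto/PARPi for 3 weeks (2 libraries). The combined therapy consisted of cmLumiOpto, a light-gated channel with its own luciferase that depolarizes mitochondria, carried by an exosome-associated AAV with a CD276 antibody, together with the luciferase substrate ViviRen and olaparib, which inhibits PARP, at 50 mg/kg. The labels call the control both saline and PBS, and they call the material tumour cells from lung where the study's methods call it lung tissue with metastasis.

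Wnt proteins bind Frizzled receptors and the co-receptors LRP5 and LRP6, which disables the complex that destroys beta-catenin, so that beta-catenin enters the nucleus and switches on target genes with TCF/LEF factors. Secreted antagonists act outside the cell: Wif1 and the Sfrp family, to which Frzb belongs, bind Wnt proteins, whereas Dkk proteins act on the LRP co-receptors, with Dkk3 a divergent member of that family. Feedback components are themselves Wnt targets. Axin2 is a scaffold of the destruction complex, Nkd1 binds Dishevelled, and Rnf43 and Znrf3 are membrane ubiquitin ligases that remove Frizzled from the cell surface until R-spondin and its Lgr receptors take them away. In the lung, Wnt signals and their inhibitors pass mainly between mesenchyme and epithelium, and promoters of Wif1 and Sfrp genes are known to carry DNA methylation at CpG positions in many tumours.

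The upstream sequences of Wif1, Sfrp2 and Axin2 are shown because these were the member that was higher after treatment, the member with the largest negative difference, and the classic Wnt target. RefSeq start sites of GRCm38.p6 gave promoters for 7 of the 10 members. For Nkd1, the bases checked after the start matched no GENCODE M21 transcript of the gene, and its promoter is kept in the counts below. Each stretch is the 250 bases before the start, on the strand of the gene, with every CG dinucleotide in capitals.
Wif1, chr10:121033754-121034003, plus strand: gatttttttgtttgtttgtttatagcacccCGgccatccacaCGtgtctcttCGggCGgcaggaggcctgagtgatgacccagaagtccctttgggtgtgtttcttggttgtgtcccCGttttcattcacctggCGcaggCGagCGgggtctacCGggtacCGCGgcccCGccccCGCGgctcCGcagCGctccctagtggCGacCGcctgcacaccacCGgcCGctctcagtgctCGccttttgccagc
Sfrp2, chr3:83766071-83766320, plus strand: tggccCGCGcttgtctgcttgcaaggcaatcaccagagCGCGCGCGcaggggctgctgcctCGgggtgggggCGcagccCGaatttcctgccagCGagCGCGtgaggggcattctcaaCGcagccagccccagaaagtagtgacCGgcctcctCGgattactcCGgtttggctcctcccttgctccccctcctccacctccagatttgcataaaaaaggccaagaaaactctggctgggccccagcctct
Axin2, chr11:108920099-108920348, plus strand: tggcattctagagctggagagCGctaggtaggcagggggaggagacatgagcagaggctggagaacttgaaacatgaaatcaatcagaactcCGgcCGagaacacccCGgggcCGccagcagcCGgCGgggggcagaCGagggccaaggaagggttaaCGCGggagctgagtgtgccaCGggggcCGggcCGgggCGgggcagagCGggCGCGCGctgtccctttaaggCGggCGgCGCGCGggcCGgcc
The Axin2 stretch held 24 CG dinucleotides, the Wif1 stretch 21 and the Sfrp2 stretch 16, against a median of 6 over 32851 mouse promoters. As many as in Axin2 were present in 12.0% of those promoters, as many as in Wif1 in 16.3% and as many as in Sfrp2 in 25.4%. The letters CTTTGA, from the TCF/LEF recognition sequence, were searched on both strands and were present in 1 of 8 promoters of the 7 members, that of Frzb, and in 13.8% of all promoters. The shorter CTTTG, which every CTTTGA holds, was present in 3 of the 8, those of Frzb, Dkk2 and Wif1, and in 48.6% of all promoters. DNA methylation and factor binding were not measured in these samples.

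Read totals were 15263375 to 16755228 per library. Levels are given as CPM, the counts of a gene scaled to a common library size. The detection floor of 3 counts came to 0.179 to 0.197 CPM (counting error only). That floor was computed on the read totals, before the TMM scaling that the levels carry. Replicates of a group differed by more than sampling noise, with a chi-square over degrees of freedom of 17.5 between the saline libraries and 29.9 between the treated libraries. Because the labels do not say that libraries of a group came from separate mice, p-values measure the spread between these libraries, which may be technical. No gene passed an adjusted p of 0.05 by the quasi-likelihood test of edgeR, adjusted by Benjamini-Hochberg over 15167 genes (0% called), the smallest adjusted p was 0.138, and 2 libraries against 2 allow no exact two-sided permutation p below 0.333. Accordingly, none of the 10 members passed that threshold, and they are given below by their levels, their fitted differences and whether the groups overlapped. At an unadjusted p under 0.05 there were 6 members, 5 lower after cmLumiOpto/PARPi and 1 higher, Wif1, where 21.2% of all tested genes lay, 9.21% higher and 12.0% lower. Because Wif1 passed the filter on low counts only through the group in which it was high, it had to differ to be tested, and its p-values and its place in these counts are no support for a difference. The groups did not overlap in 7 members, 1 with higher and 6 with lower treated libraries, whereas this held for 55.2% of all tested genes, 27.4% higher and 27.8% lower. The median log2 fold change was -0.64 over the members and 0.02 over all tested genes. Because the members were chosen with earlier results of these data known, these comparisons with all tested genes only describe them. With DESeq2, 3 members passed an adjusted p of 0.05, namely Sfrp1 (0.0377), Sfrp2 (0.00973) and Znrf3 (0.0168), where 6.72% of genes did so. Without the filter on low counts 5 members passed, Wif1, Sfrp1, Sfrp2, Dkk2 and Znrf3, where 7.86% of genes did so. Over all alternatives the adjusted p ranged from 0.00671 to 0.451 for Sfrp1, from 9.87e-07 to 0.466 for Sfrp2 and from 0.00939 to 0.44 for Znrf3.

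**Figure D1:**
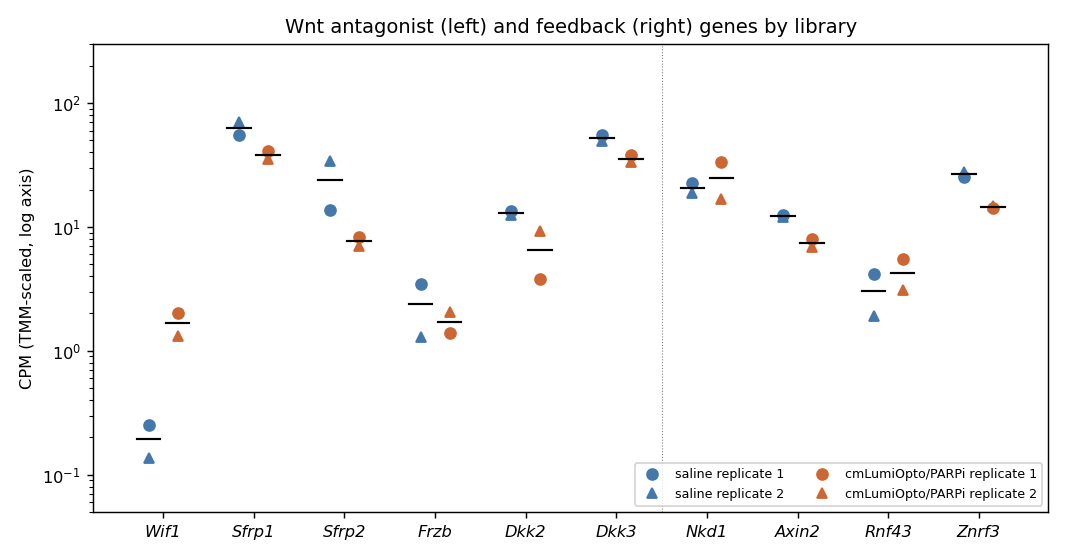
CPM (TMM-scaled, log axis) of each of the 10 genes in each library, saline in blue and cmLumiOpto/PARPi in orange, with circles for replicate 1, triangles for replicate 2 and a bar at the group mean. Wif1 is higher in both treated libraries (1.32 and 2.02 CPM) than in both saline libraries (0.136 and 0.251 CPM), while Sfrp1, Sfrp2, Dkk2, Dkk3, Axin2 and Znrf3 are lower in both, and Frzb, Nkd1 and Rnf43 overlap.

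Wif1 was the only member with both treated libraries above both saline libraries. This gene (ENSMUSG00000020218, chr10:120869865-120936555 in the deposited table) encodes Wnt inhibitory factor, which captures Wnt proteins outside the cell. Its counts were 4 and 2 with saline and 35 and 22 with cmLumiOpto/PARPi, corresponding to 0.251 and 0.136 CPM against 2.02 and 1.32 CPM. The treated libraries thus lay well above the saline libraries, of which replicate 2 was below 3 counts. As a gene tested only through its treated libraries, which alone were past the filter cutoff of 0.614 CPM, it is described by its fit: the log2 fold change was 3.05 with a standard error of 0.66 (unadjusted p = 0.0040, adjusted p = 0.138, edgeR's quasi-likelihood test). Over the summed counts of each group, 57 against 6, the ratio was 8.56 with an exact 95% counting interval from 3.70 to 24.3. That interval holds counting error only and leaves out the spread between libraries of a group. Because Wif1 was tested only through its treated libraries, the interval is no support for a difference. Its mean over all 4 libraries exceeded that of 6.26% of the tested genes.

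Sfrp1 and Dkk3 had the highest mean levels of the antagonists per kilobase of gene, although in saline replicate 2 Sfrp2 (15.7 CPM per kilobase) was above Dkk3 (14.8), and both were lower in the treated libraries. Sfrp1 (ENSMUSG00000031548, chr8:23901518-23939648) encodes a secreted protein with a Frizzled-like domain that binds Wnt proteins. Its level was 55.6 and 70.0 CPM with saline, above the 41.0 and 35.5 CPM of the treated libraries. The mean was 62.8 ± 10.2 CPM with saline and 38.2 ± 3.88 CPM after treatment (SD, n = 2), a log2 fold change of -0.72 with a standard error of 0.18 (unadjusted p = 0.00724, adjusted p = 0.142, edgeR). Dkk3 (ENSMUSG00000030772, chr7:111715224-111758264) had 55.3 and 49.8 CPM with saline and 38.0 and 33.2 CPM with cmLumiOpto/PARPi. Its groups did not overlap either, and the log2 fold change was -0.56 with a standard error of 0.15 (unadjusted p = 0.0117, adjusted p = 0.155, edgeR). In both genes the replicates of each group differed beyond counting error, by 1.11 to 1.26 times, which was less than the difference between the group means.

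Sfrp2 showed the largest negative difference of the members and also a wide spread within the saline group. Sfrp2 (ENSMUSG00000027996, chr3:83673628-83681623), a close relative of Sfrp1 known from activated stroma, had 13.7 and 33.8 CPM in the saline libraries. In the treated libraries it had 8.35 and 7.04 CPM, so that both lay below both saline libraries. The log2 fold change was -1.62 with a standard error of 0.44 (unadjusted p = 0.0112, adjusted p = 0.153, edgeR). Saline replicate 2 was 2.46 times replicate 1, with a 95% counting interval from 2.10 to 2.90, whereas the treated replicates differed by 1.19 times with an interval from 0.923 to 1.53. Without saline replicate 2 the log2 fold change of Sfrp2 was -0.84, and without saline replicate 1 it was -2.13.

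Dkk2 and Frzb were less clear. Dkk2 (ENSMUSG00000028031, chr3:131791053-131886065), whose protein acts on the LRP co-receptors, had 13.5 and 12.4 CPM with saline and 3.80 and 9.27 CPM with cmLumiOpto/PARPi. The groups did not overlap, but the treated replicates differed by 2.44 times (95% counting interval 1.82 to 3.31). Its log2 fold change was -0.99 with a standard error of 0.44 (unadjusted p = 0.0676, adjusted p = 0.264, edgeR), and it was -0.48 without cmLumiOpto/PARPi replicate 1 and -1.77 without replicate 2 of that group. Frzb (ENSMUSG00000027004, chr2:80242314-80277969), a Frizzled-related protein first known from cartilage, had 3.45 and 1.29 CPM with saline and 1.38 and 2.05 CPM with cmLumiOpto/PARPi. The groups of Frzb overlapped, with a log2 fold change of -0.47 and a standard error of 0.60 (unadjusted p = 0.464, edgeR), and the sign turned to 0.40 without saline replicate 1, while it was -1.01 without saline replicate 2. Frzb also differed 2.66 times between the saline replicates (95% counting interval 1.56 to 4.75), so a difference between the groups was not detectable with these libraries.

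Among the feedback genes, Znrf3 and Axin2 were lower after treatment and were the most even between replicates. Znrf3 (ENSMUSG00000041961, chr11:5226324-5394847), which encodes the ubiquitin ligase that removes Frizzled, had 25.2 and 27.9 CPM with saline and 14.1 and 14.7 CPM with cmLumiOpto/PARPi. Its mean was 26.5 ± 1.88 against 14.4 ± 0.408 CPM (SD, n = 2), a log2 fold change of -0.88 with a standard error of 0.18 (unadjusted p = 0.00313, adjusted p = 0.138, edgeR). Axin2 (ENSMUSG00000000142, chr11:108811175-108841609), the most widely used read-out of beta-catenin activity, had 12.5 and 12.1 CPM with saline and 7.94 and 6.92 CPM with cmLumiOpto/PARPi. The mean of Axin2 was 12.3 ± 0.248 against 7.43 ± 0.725 CPM (SD, n = 2), a log2 fold change of -0.73 with a standard error of 0.24 (unadjusted p = 0.0253, adjusted p = 0.188, edgeR). The treated libraries were clearly below the saline libraries in both genes. In Znrf3, Axin2 and Wif1 the counting interval of the ratio between replicates included 1 in both groups. For Wif1 with saline, at 4 and 2 counts, that interval ran from 0.264 to 20.3 and is too wide to show even replicates.

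Nkd1 and Rnf43 did not follow them. Nkd1 (ENSMUSG00000031661, chr8:89247982-89321512), the Dishevelled-binding inhibitor, had 22.5 and 18.9 CPM with saline and 33.2 and 16.8 CPM with cmLumiOpto/PARPi. The highest and the lowest of the 4 libraries were both treated, and the log2 fold change was 0.27 with a standard error of 0.34 (unadjusted p = 0.459, edgeR). Without cmLumiOpto/PARPi replicate 1 the log2 fold change of Nkd1 was -0.30. Rnf43 (ENSMUSG00000034177, chr11:87553548-87626365), the paralog of Znrf3, had 4.20 and 1.91 CPM with saline and 5.47 and 3.07 CPM with cmLumiOpto/PARPi. In Rnf43 replicate 1 was higher than replicate 2 in both groups, by 2.20 times with saline and by 1.78 times after treatment, and the log2 fold change was 0.48 with a standard error of 0.53 (unadjusted p = 0.405, edgeR). It was 1.16 without saline replicate 1 and 0.02 without saline replicate 2, and 0.0025 without cmLumiOpto/PARPi replicate 1 and 0.83 without replicate 2 of that group. Nkd1, Rnf43, Sfrp1 and Dkk3 were the 4 members whose replicates differed beyond counting error in both groups.

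**Figure D2:**
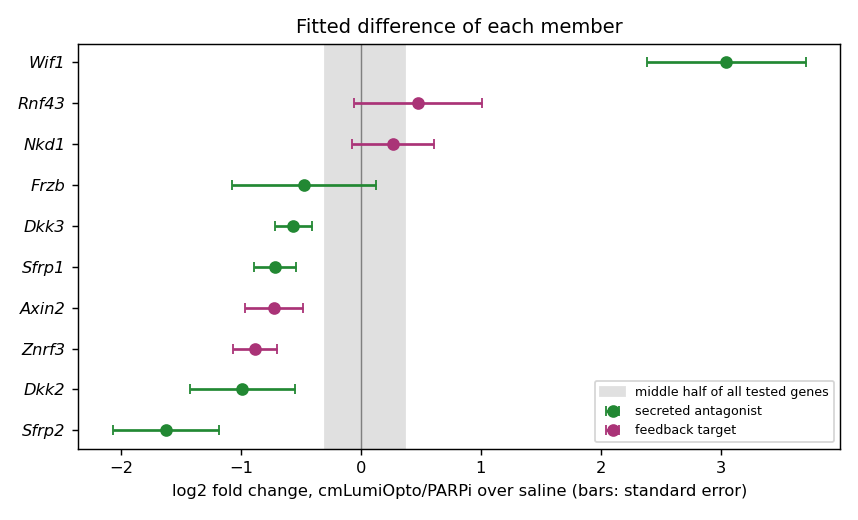
Log2 fold change of cmLumiOpto/PARPi over saline for each of the 10 genes with its standard error from edgeR, antagonists in green and feedback genes in purple, ordered by size over the interquartile range of all tested genes (grey, -0.30 to 0.37). Wif1 stands at 3.05, Rnf43 and Nkd1 at 0.48 and 0.27, and the other genes lie between -0.47 and -1.62.

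Levels of different genes were compared as CPM per kilobase of gene length. In the saline libraries the order of the mean levels was Dkk3 (15.6), Sfrp1 (14.4), Sfrp2 (11.0), Nkd1 (4.55), Dkk2 (3.49), Znrf3 (3.36), Axin2 (2.23), Frzb (0.733), Rnf43 (0.466) and Wif1 (0.0798 CPM per kilobase). Neighbours in that order overlapped between libraries for Dkk3 and Sfrp1, Sfrp1 and Sfrp2, Dkk2 and Znrf3, and Frzb and Rnf43. After cmLumiOpto/PARPi the order was Dkk3 (10.6), Sfrp1 (8.75), Nkd1 (5.48), Sfrp2 (3.57), Znrf3 (1.82), Dkk2 (1.76), Axin2 (1.35), Wif1 (0.688), Rnf43 (0.651) and Frzb (0.529 CPM per kilobase). There, overlapping neighbours were Nkd1 and Sfrp2, Znrf3 and Dkk2, Dkk2 and Axin2, Wif1 and Rnf43, and Rnf43 and Frzb. Summed over the 6 antagonists, the level was 40.4 and 50.3 CPM per kilobase with saline and 26.8 and 24.96 CPM per kilobase with cmLumiOpto/PARPi, so the treated libraries were lower in the sum although Wif1 was higher. Sfrp1 and Dkk3 together made up 72.3% and 61.3% of that sum with saline and 77.1% and 72.2% after treatment, and Wif1 at most 3.09% of it in any library. Within the pair of ubiquitin ligases, Znrf3 exceeded Rnf43 per kilobase by 4.99 and 12.1 times with saline and by 2.14 and 3.98 times with cmLumiOpto/PARPi. The ratio of Nkd1 to Axin2 per kilobase was 2.18 and 1.89 with saline and 5.04 and 2.93 after treatment. Neither this ratio nor that of Znrf3 to Rnf43 overlapped between groups, and 55.2% of single tested genes did not overlap either. The share over pairs of genes was not computed. As single genes, Axin2 and Znrf3 were lower without overlap, whereas Nkd1 and Rnf43 overlapped. The ratio of Znrf3 to Axin2 did overlap, at 1.41 and 1.60 with saline and 1.24 and 1.48 after treatment.

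The other genes of the pathway were read in the same fit by lists, none of whose genes passed an adjusted p of 0.05. Their counts at an unadjusted p under 0.05 stand against 12.0% lower and 9.21% higher over all tested genes, and their counts of groups that did not overlap against 27.8% lower and 27.4% higher. Of 14 other antagonists, their co-receptors and binding proteins, 5 were tested and 9 had at most 7 counts in any library, with Dkk1, Dkk4, Sfrp4, Sfrp5 and Sost among these 9. Kremen1, the Dkk co-receptor, was the member of that list with an unadjusted p under 0.05, at 68.2 and 70.0 CPM with saline and 43.1 and 47.1 CPM after treatment, a log2 fold change of -0.62. Of 16 other Wnt targets, 14 were tested, with 6 lower and 2 higher at an unadjusted p under 0.05 and a median log2 fold change of -0.54. The R-spondin receptor gene Lgr6 had 192 and 329 CPM with saline and 98.7 and 120 CPM after treatment, and Ccn4 64.5 and 44.4 against 30.5 and 29.3 CPM. In the opposite direction, Bambi, a pseudoreceptor for TGF-beta signals, had 3.51 and 3.0 CPM with saline and 7.71 and 6.14 CPM after treatment, and Bmp4 4.45 and 2.45 against 15.4 and 6.56 CPM.

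R-spondins take Rnf43 and Znrf3 off the membrane. Of the 7 R-spondin and Lgr genes, 5 were tested, and Lgr6 and Lgr5 were lower at an unadjusted p under 0.05. Both genes also stand in the list of other Wnt targets and were counted among its lower genes. Lgr5, a stem cell receptor and Wnt target, had 7.27 and 4.84 CPM with saline and 0.691 and 2.11 CPM after treatment, a log2 fold change of -2.11 with a standard error of 0.60. Rspo1, chosen after its values were seen, had 2.26 and 2.18 CPM with saline and 8.41 and 0.963 CPM after treatment, with the highest and the lowest level both in treated libraries, while Rspo2 and Rspo4 had at most 10 counts in any library. Of 10 tested Frizzled and LRP receptor genes, 4 were lower and 0 higher at an unadjusted p under 0.05 (all tested genes 12.0% and 9.21%), with Lrp6 at 122 and 117 CPM against 79.0 and 76.7 CPM and Fzd1 at 85.0 and 57.9 against 32.0 and 37.1 CPM. Of 20 genes of the beta-catenin relay, 9 were lower and 0 higher, with 13 whose groups did not overlap, all 13 lower (all tested genes 27.8%), and a median log2 fold change of -0.39. Of these 20 genes, 11 were among the 3034 longest tested genes, of at least 7273 bases, whose median log2 fold change was -0.27. With offsets that remove the trend on gene length, the median of the relay was -0.29 against -0.05 over all genes, with 5 lower and 0 higher at an unadjusted p under 0.05 (all tested genes 8.37% and 6.05%). That of the receptors was -0.26 with 4 lower, and that of the other targets -0.58 with 6 lower and 2 higher. Gsk3b, the kinase that marks beta-catenin for destruction, had 109 and 122 CPM with saline and 61.3 and 66.7 CPM after treatment. Bcl9, a beta-catenin cofactor, had a log2 fold change of -0.88 with a standard error of 0.13. Of 14 tested ligand and secretion genes, 3 were lower and 1 higher at an unadjusted p under 0.05, where the higher one, Wnt6, had 0.125 and 0.613 CPM with saline and 2.19 and 1.02 CPM after treatment and, like Wif1, was tested only through the treated libraries, so that its count is no support. The lower ligands with the smallest p were Wnt4 (log2 fold change -2.20, standard error 0.19) and Wnt7b (-0.71, standard error 0.19).

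**Figure D3:**
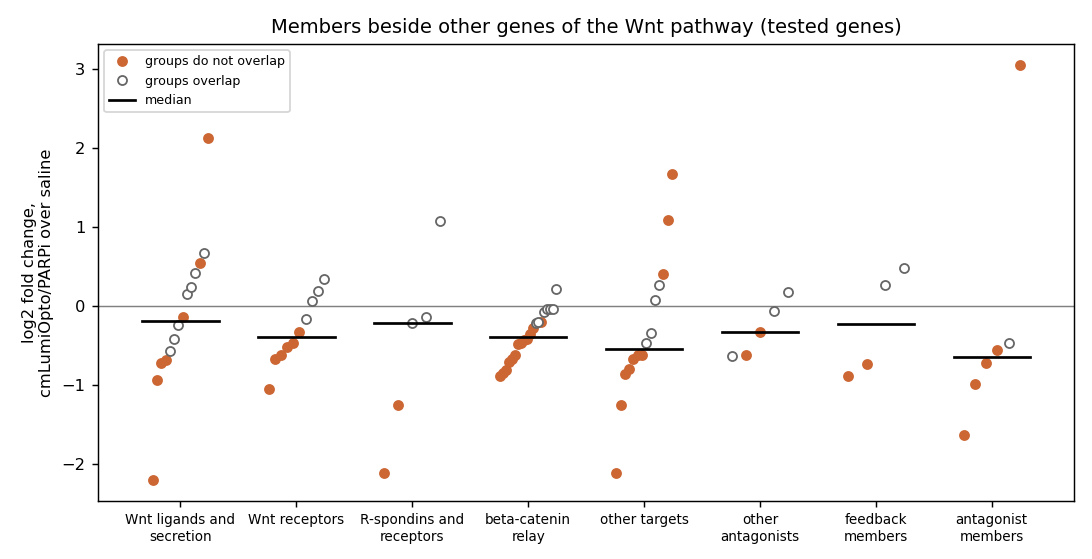
Log2 fold change of cmLumiOpto/PARPi over saline for the tested genes of each Wnt list, 1 point per gene, filled where the groups do not overlap and open where they do, with a bar at the median. Medians run from -0.19 in the ligand list to -0.64 in the antagonists described here, and Wif1 at 3.05 is the highest point.

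Markers of other cell types differed between the groups and are given beside the members. Summed CPM of 7 airway epithelial markers was 83.5 to 1156 with saline and 3198 to 5706 after treatment, with all 7 markers higher in both treated libraries, where 27.4% of all tested genes were higher and 27.8% lower without overlap. Of these 7, Muc5b passed the filter on low counts only through the treated libraries. Bpifa1 was past the filter cutoff in 1 saline and 2 treated libraries. For 7 alveolar type 2 markers the sum was 442 to 1682 against 2909 to 8210 CPM (6 markers higher, 1 lower), and for 6 alveolar type 1 markers it was 125 to 304 against 455 to 905 CPM (5 higher). Lung epithelial markers were thus present in every library, whatever the label of tumour cells. Fibroblast markers were split. Their sum was 4192 to 5623 CPM with saline and 2391 to 2477 CPM after treatment. Of the 10 genes, 7 were lower, namely Col1a1, Col1a2, Col3a1, Pdgfra, Dcn, Lum and Npnt, while Dpt, Tcf21 and Inmt were higher. The sums of 8 tumour epithelial markers overlapped between the groups (2821 to 3927 CPM over all libraries). Those of 7 smooth muscle markers, 5 mesothelial markers, 7 endothelial markers, 6 cardiac muscle markers and 7 leukocyte markers overlapped as well. The 8 tumour epithelial markers were Epcam, Krt8, Krt18, Krt7, Krt19, Cdh1, Cldn3 and Cldn4. Of these, Cldn3 was higher in both treated libraries and 0 were lower without overlap. What part of their sum came from tumour and what part from lung epithelium was not tested. Cartilage markers, a list kept because Frzb and Wif1 are expressed there, were near 0 with sums of 0.502 to 1.38 CPM, and Acan, Matn1, Cnmd and Col9a1 had no counts. What part these cell types had in the levels of the members was not tested, and in bulk RNA fewer cells of a type and less RNA per cell cannot be told apart.

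**Figure D4:**
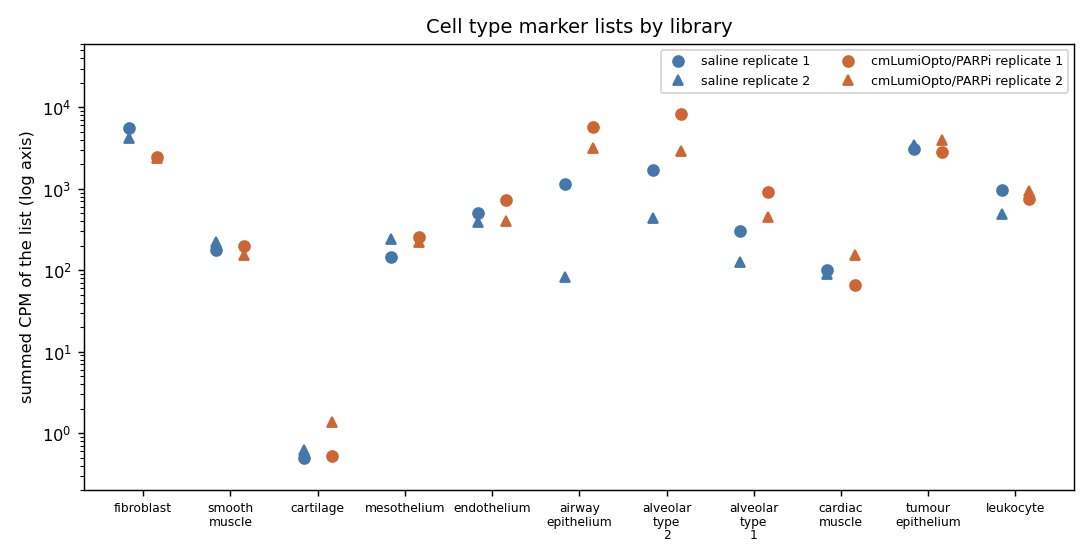
Summed CPM (log axis) of each cell type marker list in each library, saline in blue and cmLumiOpto/PARPi in orange, with circles for replicate 1 and triangles for replicate 2. Airway and alveolar lists are higher in both treated libraries, the fibroblast list is lower in both, and the tumour epithelial list overlaps between 2821 and 3927 CPM.

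Fold changes were lower for longer genes across all tested genes (Spearman's rho = -0.37 across genes, which are not independent replicates). The median log2 fold change was 0.15 over all genes in the length range of Wif1, Sfrp2, Dkk3 and Frzb, 0.02 in that of Sfrp1, Dkk2 and Nkd1, -0.09 in that of Axin2 and Rnf43, and -0.27 in that of Znrf3. With offsets that remove this trend in each library, the log2 fold change was 2.81 for Wif1, -0.71 for Axin2, -0.75 for Znrf3 and -1.93 for Sfrp2. Genes that overlap a member on either strand had no counts in these libraries.

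Genes with the pattern most like Axin2 and Wif1 were found by the root mean square difference of log2 CPM over the 4 libraries, each gene centred on its own mean. For Axin2 the nearest were Mrtfb (0.0274), Kat6a (0.0274) and Tent5b (0.0281), and 1195 tested genes lay within 0.2. For Wif1 the nearest were Clec1b (0.101), Ccdc187 (0.121) and Cfap206 (0.121), and 8 tested genes lay within 0.2. Those near Wif1 were at its low level, with 0.0681 to 0.188 CPM in the saline libraries, where 1 count more or less moves the value.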

How the data were processed

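Total RNA libraries from lungs of mice given saline (2 libraries) or cmLumiOpto/PARPi (2 libraries) were analysed. The authors mapped reads with HISAT2 and deposited raw read counts per gene, not normalized, with the length and position of each gene. The study's methods name GRCm38 and the labels name mm39. Of 52125 table genes found in GENCODE M21 (GRCm38), 2.75% had the same position and 96.8% the same span, so gene positions are printed as the table gives them, under the labels' build mm39, and only promoters are in GRCm38.p6. The counting tool and its strand setting are not given in the sources used here.

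Counts were tested with edgeR 4.0.16 in R 4.3.3 (TMM, default glmQLFit and glmQLFTest after filterByExpr at a minimum count of 10, Benjamini-Hochberg over all 15167 genes, threshold 0.05). The standard error is the log2 fold change over the square root of F. CPM uses TMM-scaled library sizes, and totals of 15263375 to 16755228 counts set the precision. Ratios between libraries carry exact (Clopper-Pearson) 95% intervals for counting error. The script was tested on simulated data. DESeq2 1.42.0, other normalizations and filters, a replicate block, length offsets (loess span 0.5) and leaving out each library were alternatives.

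The members and all lists were chosen with earlier results of these data known. Named were all members, up to 2 genes per Wnt list and direction with the smallest p, cell type markers, and the 3 genes nearest to Wif1 and Axin2.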

Additional observations from a re-analysis of the deposited data

How the results depend on the processing

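Of 130 recomputed log2 fold changes of the 10 members under 13 alternatives, 128 kept their direction. The reversals were Frzb without saline replicate 1 (0.40, against -1.01 without saline replicate 2) and Nkd1 without cmLumiOpto/PARPi replicate 1 (-0.30, against 0.67 without replicate 2 of that group). Genes past the adjusted threshold numbered 2000 without the filter on low counts and 966 with DESeq2. They numbered 0 with the other normalizations, with protein-coding genes only, without the legacy option and with length offsets. The main edgeR fit used here, not a count given by the study, also had 0. Members past it numbered 5 without the filter (7.86% of all genes) and 3 with DESeq2. The labels' replicate numbers mark no shared animal or batch, and same-numbered libraries deviated together (Spearman's rho = 0.298 across genes, 2 pairs). Blocking on the replicate number in edgeR, 1822 genes (12.0%) and 5 members passed. These were Wif1 (adjusted p = 0.0333), Sfrp1 (0.0406), Sfrp2 (0.0403), Dkk3 (0.0461) and Znrf3 (0.0270). With the block and length offsets together, 1234 genes (8.14%) and 5 members passed. Wif1 was among the 5 members both times. Because Wif1 was tested only through its treated libraries, its place among them is no support for a difference. Over the alternatives adjusted p ranged from 0.00673 to 0.442 for Wif1 and from 0.0285 to 0.44 for Dkk3. Leaving out each library, which leaves 1 library in a group, gave a median log2 fold change of the members from -0.69 to -0.57. Upper quartile normalization raised the median of all genes from 0.02 to 0.13 and that of the members to -0.53, changed no member's direction and turned the split at an unadjusted p under 0.05 from 1397 higher and 1824 lower to 2089 higher and 1186 lower. The cause of these shifts was not tested. With 2 libraries per group and 2 to 4 counts of Wif1 with saline, the size of its difference is poorly bounded.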
